A study of Mus musculus with 12 samples.

Results

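Interferon-stimulated genes are transcripts that cells switch on when interferons bind their receptors, and 48 of them were listed by symbol. A listed gene was used where a probe set, the group of array probes summarised into 1 value, named that gene alone. Where several probe sets did, as for Irf1, the one with the highest mean over the 12 arrays was taken. Of the 48 listed genes, 42 were found, among 19937 genes on the arrays. Isg15, Gbp2, Irgm2, Igtp and Tgtp1 lie on probe sets that name more than 1 gene, and no probe set names Ifi44, so these 6 were not analysed here. The OAS, IFIT, GBP and Mx families hold close relatives, and signal between such relatives cannot be told apart with certainty.

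RNA was taken from the whole lung of 12 Balb/c mice, 1 array (Affymetrix mouse Gene ST) for each mouse and 3 mice for each of 4 groups. Neutrophilic mice were given house dust mite extract with 7.5 development units (DU) each of the allergens Der f and Der p through the nose, weekly and 4 times in all. Mixed mice were given 0.75 DU of each allergen on that schedule. Eosinophilic mice were injected 3 times into the peritoneum with 0.75 DU of each allergen on 1.5 mg of aluminium hydroxide (alum) and then challenged through the nose from day 26 to day 28. Control mice were given PBS through the nose alone, so alum and injection were part of the eosinophilic model and of no other group. The group names are those of the labels, and the time from the last application to collection of the lung is not given in the sources used here. Values are log2 intensities, in which a difference of 1 is a 2-fold change, and a level is compared only between arrays for the same gene. Each p-value sets a difference between group means against the spread between mice within groups. That spread is pooled over the groups in the fit and drawn toward that of all genes. The number of mice, 3 in each group and fewer in some fits, limits the precision.

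Type I interferons (interferon alpha and beta) signal through a JAK kinase cascade to a complex that includes STAT2 and IRF9. That complex binds the interferon-stimulated response element (ISRE) in promoters of antiviral genes. Interferon gamma, made mainly by T cells and NK cells, acts on the gamma-activated site (GAS), and IRF1 carries its signal on to further promoters. In the lung the response is best known from virus infection, where epithelium, macrophages and plasmacytoid dendritic cells take part.

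Promoters of 6 genes from the main roles are shown, all of which rose in both intranasal models (below), to show which of both elements lies near each start. They are RefSeq sequences of build GRCm38.p6, 250 bases before to 50 after the start of the gene, read 5′ to 3′ on the strand of the gene. Capitals mark matches on either strand to the ISRE, searched as GAAA, any 2 bases and GAAA again, or to the GAS, searched as TTCNNNGAA. Cxcl10 lies at chr5:92348840-92349139 (minus strand), Irf1 at chr11:53769764-53770063 (plus), Ifit1 at chr19:34640639-34640938 (plus), Rsad2 at chr12:26456403-26456702 (minus), Gbp5 at chr3:142496684-142496983 (plus) and Irgm1 at chr11:48871371-48871670 (minus).
Cxcl10: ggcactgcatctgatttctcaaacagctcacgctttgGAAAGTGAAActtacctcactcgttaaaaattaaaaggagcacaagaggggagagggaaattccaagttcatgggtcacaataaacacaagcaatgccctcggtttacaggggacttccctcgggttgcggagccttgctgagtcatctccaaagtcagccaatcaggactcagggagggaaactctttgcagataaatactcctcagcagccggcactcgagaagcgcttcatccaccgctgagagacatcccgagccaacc
Irf1: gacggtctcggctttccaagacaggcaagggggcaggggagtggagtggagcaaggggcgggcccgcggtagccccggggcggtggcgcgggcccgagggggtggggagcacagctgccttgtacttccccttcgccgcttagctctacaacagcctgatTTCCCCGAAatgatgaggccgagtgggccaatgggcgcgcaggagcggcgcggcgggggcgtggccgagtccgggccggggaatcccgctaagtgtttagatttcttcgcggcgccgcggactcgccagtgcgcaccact
Ifit1: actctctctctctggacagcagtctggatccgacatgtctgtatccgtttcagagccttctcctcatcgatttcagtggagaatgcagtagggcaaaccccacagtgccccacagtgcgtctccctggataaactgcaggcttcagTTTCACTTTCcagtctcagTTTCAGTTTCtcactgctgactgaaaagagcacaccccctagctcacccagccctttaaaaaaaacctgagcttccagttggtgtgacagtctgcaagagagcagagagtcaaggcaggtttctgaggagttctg
Rsad2: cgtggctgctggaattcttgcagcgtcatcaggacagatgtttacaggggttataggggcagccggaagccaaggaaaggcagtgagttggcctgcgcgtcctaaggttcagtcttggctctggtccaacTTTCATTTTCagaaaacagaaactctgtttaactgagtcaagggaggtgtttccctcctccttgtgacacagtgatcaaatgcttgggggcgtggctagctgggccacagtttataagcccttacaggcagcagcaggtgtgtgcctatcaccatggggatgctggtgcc
Gbp5: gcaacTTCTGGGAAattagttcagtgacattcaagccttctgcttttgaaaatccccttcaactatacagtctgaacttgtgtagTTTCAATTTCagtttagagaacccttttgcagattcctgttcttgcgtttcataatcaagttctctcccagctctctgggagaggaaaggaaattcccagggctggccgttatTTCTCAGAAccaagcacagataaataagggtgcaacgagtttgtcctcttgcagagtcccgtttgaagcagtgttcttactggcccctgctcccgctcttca
Irgm1: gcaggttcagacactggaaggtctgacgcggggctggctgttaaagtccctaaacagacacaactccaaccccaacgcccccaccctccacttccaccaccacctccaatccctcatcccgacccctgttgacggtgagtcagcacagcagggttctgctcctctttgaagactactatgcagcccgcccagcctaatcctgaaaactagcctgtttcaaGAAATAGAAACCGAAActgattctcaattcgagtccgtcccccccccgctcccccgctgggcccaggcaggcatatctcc

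The Cxcl10, Ifit1, Rsad2 and Irgm1 windows hold ISRE matches and no GAS match. Cxcl10 has its single match 213 bases before the start, and Irgm1 has a pair of overlapping matches that begin 30 and 24 bases before it, printed as 1 run of capitals. The Irf1 window, 1 of 2 starts in the table, holds a GAS match and no ISRE match, and the Gbp5 window holds 1 ISRE and 2 GAS matches. Promoters were in the table for 30 of the 42 genes. An ISRE match was present in 16 of these 30 (53.3%), against 3.99% of all 27025 genes with a promoter, and a GAS match in 9 (30%), against 9.55%. Among the 14 of them that passed the test against control in neutrophilic or mixed mice, 8 had an ISRE match, and so did 8 of the 16 that passed in neither. A match describes the letters in the window and shows no binding.

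On the array of eosinophilic mouse 7 the genes varied little and followed those of the other mice poorly. Against the median of the 11 remaining arrays its correlation over genes (Pearson) was 0.356, and its SD over genes was 0.995. Of all genes, 44.8% lay above every control on this array, so such a position on mouse 7 says little by itself. Eosinophilic mouse 9 (SD 1.52, correlation 0.863) and neutrophilic mouse 23 (SD 1.51, correlation 0.868) also had low SDs. For the 9 arrays left, the SD was between 1.77 and 2.04 and the correlation between 0.956 and 0.980. Neutrophilic, mixed and control mice were compared in a limma fit on the 9 arrays of these groups, and each comparison with eosinophilic mice used a fit on all 12. Markers of lung epithelium averaged 9.79 to 10.42 on neutrophilic, 10.15 to 10.62 on mixed and 10.35 to 10.57 on control arrays. On eosinophilic arrays they averaged 6.32 to 10.38, the lowest on mouse 7.

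In both intranasal models 15 of the 42 interferon-stimulated genes rose against control lung, and 21 passed the test in neither. In neutrophilic mice 18 of the 42 genes rose and 0 fell at an adjusted p under 0.05 (limma with Benjamini-Hochberg adjustment over 19937 genes). That is 42.9% of the genes, against 3.02% of all genes that rose, while 10.4% of all genes fell. In mixed mice 18 of 42 rose and 0 fell as well, against 1.76% of all genes that rose and 2.44% that fell. The median log2 difference of the 42 genes was 0.91 in neutrophilic mice (all genes 0.05) and 1.20 in mixed mice (all genes 0.00455). Differences were positive for 38 of 42 genes in neutrophilic mice (53.7% of all genes), the exceptions being Ddx58, Samd9l, Herc6 and Gbp7, and for 42 of 42 in mixed mice (50.6% of all genes). All 3 neutrophilic arrays lay above all 3 control arrays for 25 genes (59.5%, all genes 12.6%) and below them for 2 (4.76%, all genes 20.4%). All 3 mixed arrays lay above the controls for 31 genes (73.8%, all genes 9.16%) and below them for 0 (all genes 13.9%). Both comparisons use the same 3 control arrays and the same estimate of the spread and are therefore not independent. The share of all genes that rose in both models was not counted, so the 15 cannot be set against it. The chemokines Cxcl9 and Cxcl10, the transcription factor Irf1, the sensor Zbp1, Oasl1, Oas2, Ifit1, Ifit2, Mx1, Mx2, Rsad2, Gbp3, Gbp5, Iigp1 and Irgm1 made up the 15 genes that rose in both models.

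**Figure D1:**
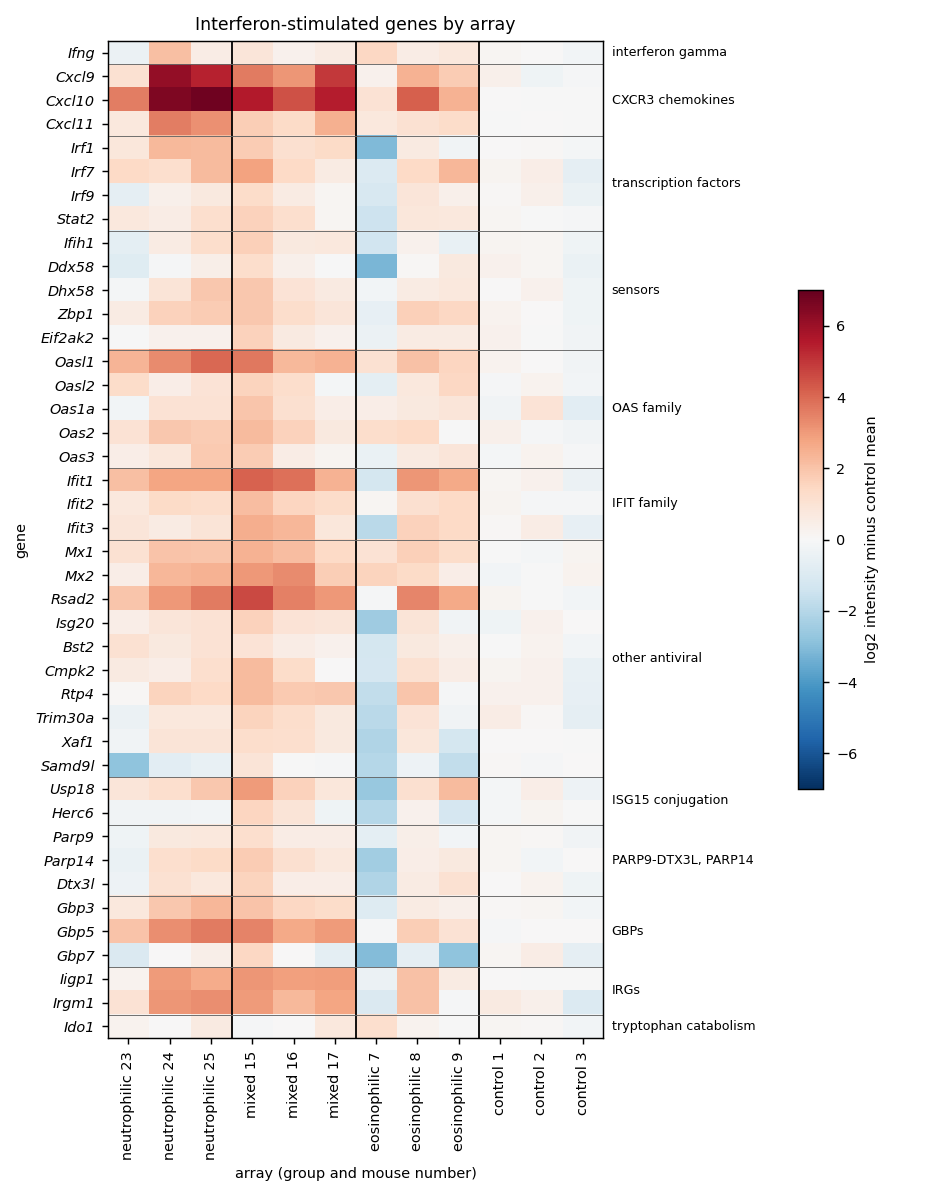
Colour shows the log2 intensity minus the control mean for each of the 42 genes (rows, by role) on each array (columns, by group and mouse number). Cxcl10 is the darkest red on all neutrophilic and mixed arrays, Cxcl9 is pale on neutrophilic mouse 23, and eosinophilic mouse 7 is blue for most genes.

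With all 12 arrays in the fit, where the wide spread of the eosinophilic arrays enters the error, 5 of the 42 genes rose in neutrophilic mice (all genes 0.662%) and 4 in mixed mice (all genes 0.326%), with 0 lower in either (all genes 1.45% and 0.145%). These were Cxcl10, Oasl1, Mx1 and Gbp5 in both, and Cxcl11 in neutrophilic mice (adjusted p = 0.04997, limma, n = 3 and 3). Without neutrophilic mouse 23 the count in neutrophilic mice was 26 higher and 0 lower (all genes 5.76% and 10.2%), and in mixed mice, where that mouse enters only the estimate of the spread, it was 27 and 0 (all genes 3.59% and 5.73%). In neutrophilic mice 11, 10 and 11 genes rose without control mouse 1, 2 or 3, beside 309, 292 and 396 of all 19937 genes that rose and 762, 910 and 1906 that fell. In mixed mice 10 genes rose without mixed mouse 15, mixed mouse 16 or control mouse 3, beside 224, 256 and 212 of all genes that rose and 423, 152 and 391 that fell. Without control mouse 1 or 2, 11 and 12 rose, beside 204 and 187 of all genes that rose and 116 that fell each time. Whichever mouse of the groups compared was left out, the same 9 genes rose in neutrophilic mice, namely Cxcl10, Irf1, Oasl1, Ifit1, Mx1, Rsad2, Gbp3, Gbp5 and Irgm1. In mixed mice 9 genes also rose each time: Cxcl10, Oasl1, Ifit1, Ifit2, Mx1, Rsad2, Rtp4, Gbp5 and Iigp1. The share of all genes that rose each time was not counted, so neither set of 9 can be set against it.

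Ifng, the gene of interferon gamma itself, measured 3.86, 6.39 and 4.81 on neutrophilic arrays, 5.16, 4.58 and 4.85 on mixed arrays, 5.74, 4.83 and 5.05 on eosinophilic arrays and 4.44, 4.32 and 4.11 on control arrays. Neutrophilic mouse 24 was the highest array and neutrophilic mouse 23 the lowest, so that group enclosed the controls, whereas all mixed and eosinophilic values lay above the control range. No test passed for Ifng in the planned fits (log2 0.73, SE 0.47, adjusted p = 0.331 in neutrophilic and 0.57, adjusted p = 0.72 in mixed mice, limma, n = 3 and 3). Without mouse 23 the neutrophilic difference was 1.31 with an adjusted p of 0.0205.

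The ligands for the receptor CXCR3, which draw activated T cells and NK cells into tissue, include Cxcl10 and Cxcl9, which had the largest differences of the 42 genes from control in both intranasal models. Cxcl10 measured 8.47, 11.40 and 11.68 in neutrophilic mice, 10.43, 9.36 and 10.39 in mixed mice, 5.91, 9.08 and 7.35 in eosinophilic mice, and 4.94, 4.89 and 4.84 in control mice. The control arrays were within 0.05 (SD) of each other, and all 9 arrays of the allergen-treated groups lay above them. Cxcl10 rose 49.5-fold in neutrophilic mice (log2 5.63, SE 0.64, adjusted p = 0.000229) and 36-fold in mixed mice (log2 5.17, SE 0.64, adjusted p = 0.000663, limma, n = 3 and 3).

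Cxcl9, whose induction depends mainly on interferon gamma, measured 5.67, 10.77 and 10.02 in neutrophilic mice, 8.24, 7.73 and 9.60 in mixed mice, 4.92, 7.07 and 6.38 in eosinophilic mice and 4.97, 4.34 and 4.55 in control mice. Neutrophilic mouse 23 stood several units below the other two of its group, yet above every control. Cxcl9 rose 18.3-fold in neutrophilic mice (log2 4.20, SE 0.97, adjusted p = 0.0131) and 14.9-fold in mixed mice (log2 3.90, SE 0.97, adjusted p = 0.0402). Without mouse 23 the neutrophilic difference was 5.77.

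Cxcl11 measured 5.68, 8.55 and 8.13 in neutrophilic, 6.65, 6.31 and 7.44 in mixed, 5.68, 6.0 and 6.26 in eosinophilic and 4.93, 4.98 and 4.93 in control mice. Again no control array reached the lowest array of any treated group. It rose 5.68-fold in neutrophilic mice (log2 2.51, SE 0.57, adjusted p = 0.0121), and its difference in mixed mice was 1.85 (adjusted p = 0.0991, limma, n = 3 and 3), with an adjusted p of 0.000365 for the same difference without mouse 23.

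**Figure D2:**
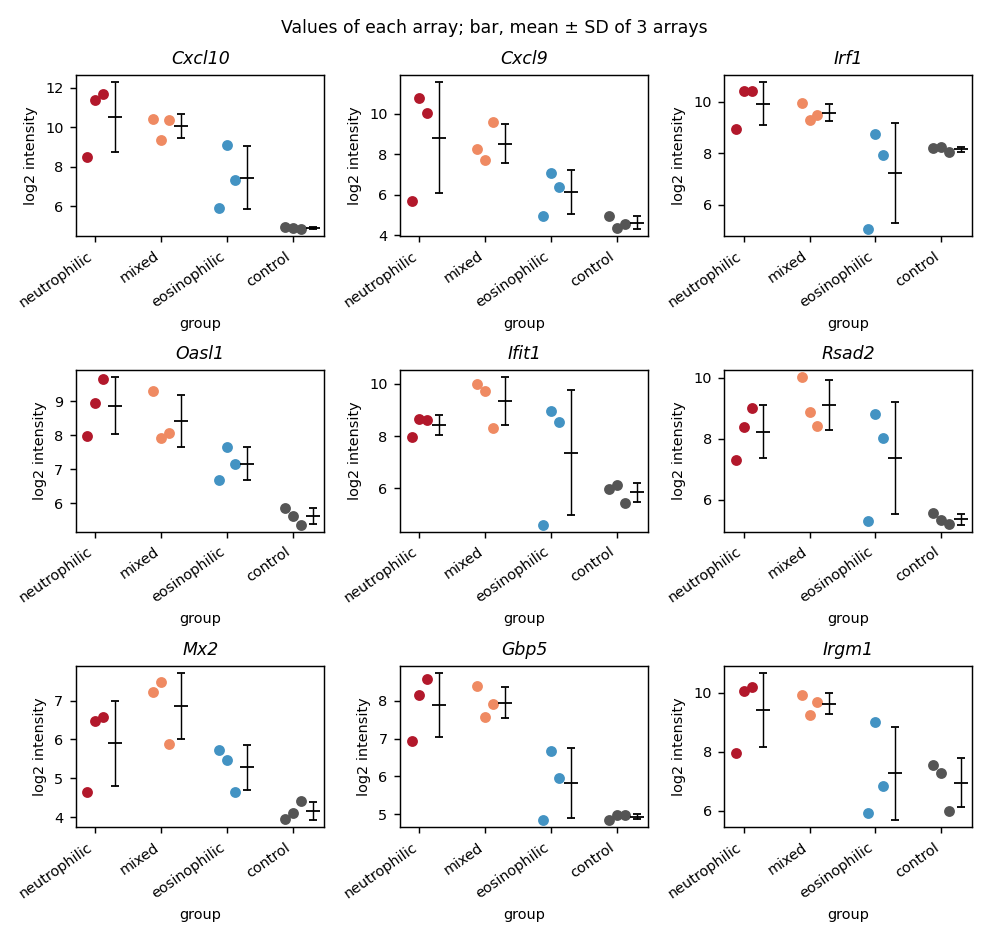
Each point is 1 array, placed by group (neutrophilic, mixed, eosinophilic, control) at its log2 intensity, with mean and SD of the 3 arrays beside it, for Cxcl10, Cxcl9, Irf1, Oasl1, Ifit1, Rsad2, Mx2, Gbp5 and Irgm1. Control points lie close together for most of these genes, and 1 neutrophilic point (mouse 23) and 1 eosinophilic point (mouse 7) lie low in most panels.

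Of the transcription factors, Irf1, a factor induced directly by interferon gamma, measured 8.95, 10.42 and 10.39 in neutrophilic mice, 9.92, 9.30 and 9.50 in mixed mice, 5.05, 8.76 and 7.91 in eosinophilic mice and 8.20, 8.22 and 8.04 in control mice. Both intranasal groups lay wholly above the controls, while eosinophilic arrays lay on both sides of them. Irf1 rose in neutrophilic mice (log2 1.77, SE 0.35, adjusted p = 0.00594) and in mixed mice (log2 1.42, adjusted p = 0.0394, limma, n = 3 and 3). A dimmer probe set for Irf1 averaged 6.19 in neutrophilic, 5.67 in mixed, 5.44 in eosinophilic and 5.48 in control mice. The order between the intranasal groups and control was the same. Its mixed and control means lay close together, so the size of the rise in mixed mice rests on the brighter probe set.

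Irf7, which drives production of further type I interferon, rose in neutrophilic mice (log2 1.61, SE 0.49, adjusted p = 0.0468). Its difference in mixed mice was almost the same size, 1.59, with an adjusted p of 0.098. Stat2 and Irf9, whose products belong to the factor that binds the ISRE, differed by 0.83 and 0.14 in neutrophilic mice and by 0.98 and 0.67 in mixed mice, and neither passed the test (adjusted p of 0.129 to 0.829 over the 4 tests).

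Among the sensors of foreign nucleic acid only Zbp1, a sensor of Z-form nucleic acid that can start cell death, passed the test in either model. It measured 6.54, 7.55 and 7.74 in neutrophilic, 7.82, 7.21 and 6.79 in mixed, 5.40, 7.61 and 7.41 in eosinophilic and 6.19, 6.01 and 5.67 in control mice. Zbp1 rose by about the same amount in neutrophilic (log2 1.32, adjusted p = 0.0227) and mixed mice (log2 1.31, adjusted p = 0.0496). Ifih1 (MDA5) and Ddx58 (RIG-I), which detect viral RNA in the cytoplasm, differed by 0.38 and -0.18 in neutrophilic mice and by 1.03 and 0.51 in mixed mice. Dhx58, a relative of both, and Eif2ak2, the kinase PKR that halts translation on double-stranded RNA, differed by 0.88 and 0.18 in neutrophilic and by 1.14 and 0.84 in mixed mice. None of these 4 genes passed the test in either model.

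In the oligoadenylate synthetase family, whose active members make the messenger that switches on RNase L, 2 of 5 genes rose in each model, Oasl1 and Oas2. Oasl1 measured 7.98, 8.95 and 9.65 in neutrophilic mice, 9.30, 7.91 and 8.07 in mixed mice, 6.68, 7.65 and 7.14 in eosinophilic mice and 5.86, 5.64 and 5.38 in control mice. Every treated array lay above every control array. The gene, which in mice restrains translation of Irf7, rose 9.43-fold in neutrophilic (log2 3.24, SE 0.42, adjusted p = 0.00051) and 6.98-fold in mixed mice (log2 2.80, adjusted p = 0.00266, limma, n = 3 and 3). Oas2 rose by 1.56 (adjusted p = 0.0144) in neutrophilic and by 1.49 (adjusted p = 0.0386) in mixed mice. Oasl2, Oas1a and Oas3 differed by 0.61 to 1.03 in neutrophilic and 0.85 to 1.17 in mixed mice without passing the test.

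The IFIT proteins bind viral RNA ends and block its translation. Ifit1 measured 7.98, 8.64 and 8.62 in neutrophilic mice, 9.99, 9.72 and 8.30 in mixed mice, 4.62, 8.96 and 8.53 in eosinophilic mice and 5.97, 6.15 and 5.46 in control mice. All arrays of both intranasal groups lay above the controls, and in the eosinophilic group 2 arrays lay above and mouse 7 below them. Ifit1 rose 5.89-fold in neutrophilic mice (log2 2.56, SE 0.39, adjusted p = 0.00124) and 11.2-fold in mixed mice (log2 3.48, adjusted p = 0.000297). Ifit2 rose by 1.11 in neutrophilic mice (adjusted p = 0.0175) and by 1.66 in mixed mice (adjusted p = 0.00434). Ifit3 rose in mixed mice (log2 1.89, adjusted p = 0.0194) and differed by 0.79 in neutrophilic mice (adjusted p = 0.227).

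Of 10 other antiviral genes, 4 rose in neutrophilic mice (Mx1, Mx2, Rsad2 and Bst2) and 5 in mixed mice (Mx1, Mx2, Rsad2, Isg20 and Rtp4). Rsad2, which encodes viperin, an enzyme that makes a chain-terminating nucleotide, measured 7.29, 8.38 and 9.02 in neutrophilic, 10.01, 8.88 and 8.43 in mixed, 5.30, 8.81 and 8.02 in eosinophilic and 5.56, 5.35 and 5.20 in control mice. No array of either intranasal group overlapped the controls. Rsad2 rose 7.27-fold in neutrophilic (log2 2.86, SE 0.44, adjusted p = 0.00124) and 13.3-fold in mixed mice (log2 3.74, adjusted p = 0.000404, limma, n = 3 and 3).

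The Mx genes encode dynamin-like GTPases against viruses, and many laboratory mouse strains carry an Mx1 allele without a working protein. Mx1 measured 5.66, 6.58 and 6.53 in neutrophilic, 7.02, 6.72 and 5.99 in mixed, 5.57, 6.26 and 5.84 in eosinophilic and 4.53, 4.44 and 4.78 in control mice, so that no treated array overlapped the controls. It rose 3.19-fold in neutrophilic (adjusted p = 0.00428) and 3.98-fold in mixed mice (adjusted p = 0.00343). Mx2 measured 4.65, 6.47 and 6.57 in neutrophilic, 7.21, 7.48 and 5.88 in mixed, 5.74, 5.47 and 4.64 in eosinophilic and 3.96, 4.10 and 4.41 in control mice. Mouse 23 was close to the highest control array and the other neutrophilic arrays well above it. Mx2 rose by 1.74 in neutrophilic (adjusted p = 0.0336) and by 2.70 in mixed mice (adjusted p = 0.00787).

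Bst2 (tetherin, which holds budding virus at the cell surface) rose in neutrophilic mice (log2 0.93, adjusted p = 0.0233) and differed by 0.58 in mixed mice (adjusted p = 0.257). Isg20, an exonuclease gene, rose in mixed mice (log2 1.15, adjusted p = 0.0324) and differed by 0.78 in neutrophilic mice (adjusted p = 0.082). Rtp4, a receptor transporter gene, rose in mixed mice (log2 1.98, adjusted p = 0.00937) and differed by 1.02 in neutrophilic mice (adjusted p = 0.0945).

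Samd9l, an antiviral and growth-restraining gene, was the only antiviral gene of the 10 with a negative difference in neutrophilic mice. It measured 4.27, 6.37 and 6.60 in neutrophilic mice, 8.0, 7.06 and 7.00 in mixed mice, 5.13, 6.76 and 5.38 in eosinophilic mice and 7.19, 7.01 and 7.11 in control mice. Neutrophilic and eosinophilic arrays lay wholly below the controls and mixed arrays around them, with the lowest value on mouse 23. The difference in neutrophilic mice did not pass the test (log2 -1.35, SE 0.49, adjusted p = 0.0935, or -0.62 without mouse 23). It did when mouse 25 was left out (log2 -1.78, adjusted p = 0.0358), the lone gene of the 42 to pass as lower in neutrophilic mice in any fit that left out 1 mouse. Cmpk2, Trim30a and Xaf1 differed by 0.38 to 0.74 in neutrophilic and by 1.02 to 1.17 in mixed mice, with none past the test.

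Usp18, the protease that removes ISG15 from proteins and dampens the interferon receptor, differed by 1.31 in neutrophilic mice (adjusted p = 0.0849) and by 1.78 in mixed mice (adjusted p = 0.0508). Herc6, the ligase that attaches ISG15 in mice, differed by -0.24 in neutrophilic and 0.69 in mixed mice. Its 3 neutrophilic values (6.50, 6.47 and 6.53) lay just below the controls (6.61, 6.92 and 6.70). Parp9 and Dtx3l, whose products form a complex that modifies histones and viral proteins, and Parp14 differed by 0.36 to 0.67 in neutrophilic and by 0.76 to 1.22 in mixed mice, without passing the test. Ido1, which degrades tryptophan, differed by 0.30 and 0.22.

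**Figure D3:**
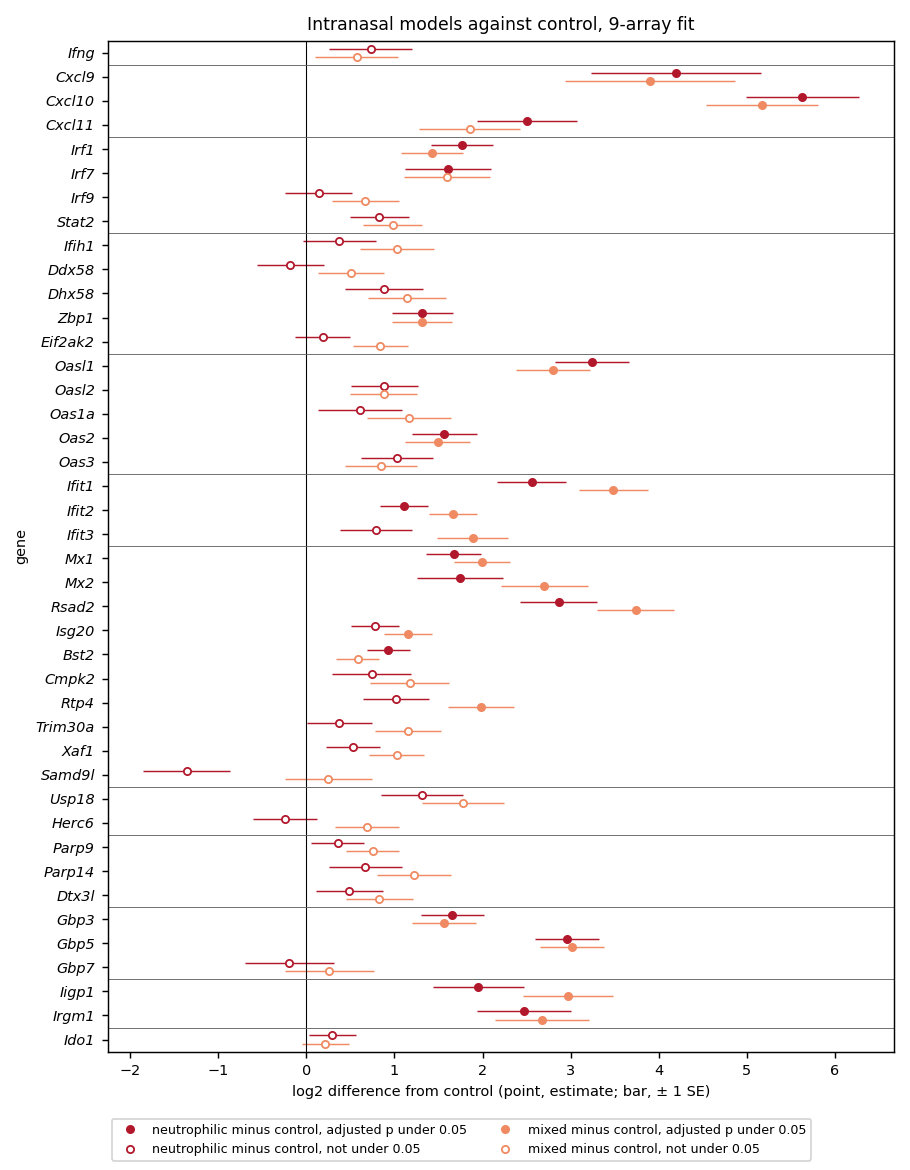
Points are log2 differences from control for each gene, neutrophilic (dark red) above mixed (orange), with 1 SE either side; filled points passed the adjusted p threshold of 0.05. Cxcl10 lies farthest to the right in both models, at 5.63 and 5.17, and Samd9l farthest to the left in neutrophilic mice, at -1.35.

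The guanylate-binding proteins and immunity-related GTPases attack the vacuoles of intracellular microbes and are typical targets of interferon gamma. Gbp5, which also promotes inflammasome assembly, measured 6.94, 8.16 and 8.57 in neutrophilic, 8.39, 7.56 and 7.91 in mixed, 4.84, 6.67 and 5.95 in eosinophilic and 4.85, 4.98 and 4.97 in control mice. The lowest array of either intranasal group was well above the highest control. Gbp5 rose 7.77-fold in neutrophilic mice (log2 2.96, SE 0.36, adjusted p = 0.000379) and 8.11-fold in mixed mice (log2 3.02, adjusted p = 0.000525, limma, n = 3 and 3). Gbp3 rose by 1.66 in neutrophilic (adjusted p = 0.00964) and by 1.56 in mixed mice (adjusted p = 0.0284). Gbp7 differed by -0.19 in neutrophilic and 0.26 in mixed mice, with arrays that overlapped the controls.

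Irgm1, a regulator of the other GTPases of its family, measured 7.97, 10.07 and 10.21 in neutrophilic, 9.94, 9.24 and 9.70 in mixed, 5.93, 9.01 and 6.86 in eosinophilic and 7.56, 7.28 and 6.0 in control mice. Control mouse 3 was lower than its group and neutrophilic mouse 23 came close to the highest control, and neither intranasal group overlapped the controls. Irgm1 rose 5.53-fold in neutrophilic mice (log2 2.47, SE 0.54, adjusted p = 0.00949) and 6.39-fold in mixed mice (log2 2.68, adjusted p = 0.0136). Iigp1, an effector GTPase, measured 6.22, 8.92 and 8.57 in neutrophilic, 9.03, 8.84 and 8.88 in mixed, 5.54, 8.0 and 6.55 in eosinophilic and 5.99, 5.95 and 5.92 in control mice. Mouse 23 was near the controls, the other neutrophilic and all mixed arrays far above them, and the eosinophilic arrays on both sides. Iigp1 rose 3.87-fold in neutrophilic (adjusted p = 0.0246) and 7.83-fold in mixed mice (adjusted p = 0.00595).

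The comparison of neutrophilic with mixed mice asks what the higher intranasal dose changed. None of the 42 genes passed the test in limma, where 0.01% of all genes were higher and 0.0451% lower. At an unadjusted p under 0.05 there were 5 of the 42 genes, all lower in neutrophilic mice (Ifit1, Ifit3, Rtp4, Samd9l and Herc6), which is 11.9%, against 10.6% of all genes in either direction. The difference was positive for 14 genes (51.9% of all genes) and negative for 28, with a median of -0.39 (all genes 0.02). All 3 CXCR3 chemokines were on the positive side (0.30 to 0.66) and all 3 IFIT genes on the negative side (-1.10 to -0.55). Arrays did not overlap for Rtp4 (7.44, 8.92 and 8.78 in neutrophilic, 9.56, 9.22 and 9.26 in mixed mice) and Samd9l, both lower in neutrophilic mice, a share of 4.76% against 9.37% of all genes, and for 0 genes that were higher (all genes 4.67%).

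The 3 genes that passed against control in neutrophilic mice alone, Cxcl11, Irf7 and Bst2, differed from mixed mice by 0.66, 0.01 and 0.35 (adjusted p of 0.674 to 0.997). The 3 that passed in mixed mice alone, Ifit3, Isg20 and Rtp4, differed by -1.10, -0.37 and -0.96 (adjusted p of 0.333 to 0.687). Neither set was thus shown to differ between the models. Without mouse 23 the median was -0.09. Then 1 gene was higher and 0 lower in neutrophilic mice (all genes 0.11% and 0.155%), namely Cxcl11 (log2 1.54, adjusted p = 0.0467), beside Cxcl10 at 1.48 (adjusted p = 0.0544) and Cxcl9 at 1.87 (adjusted p = 0.0963, limma, n = 2 and 3).

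**Figure D4:**
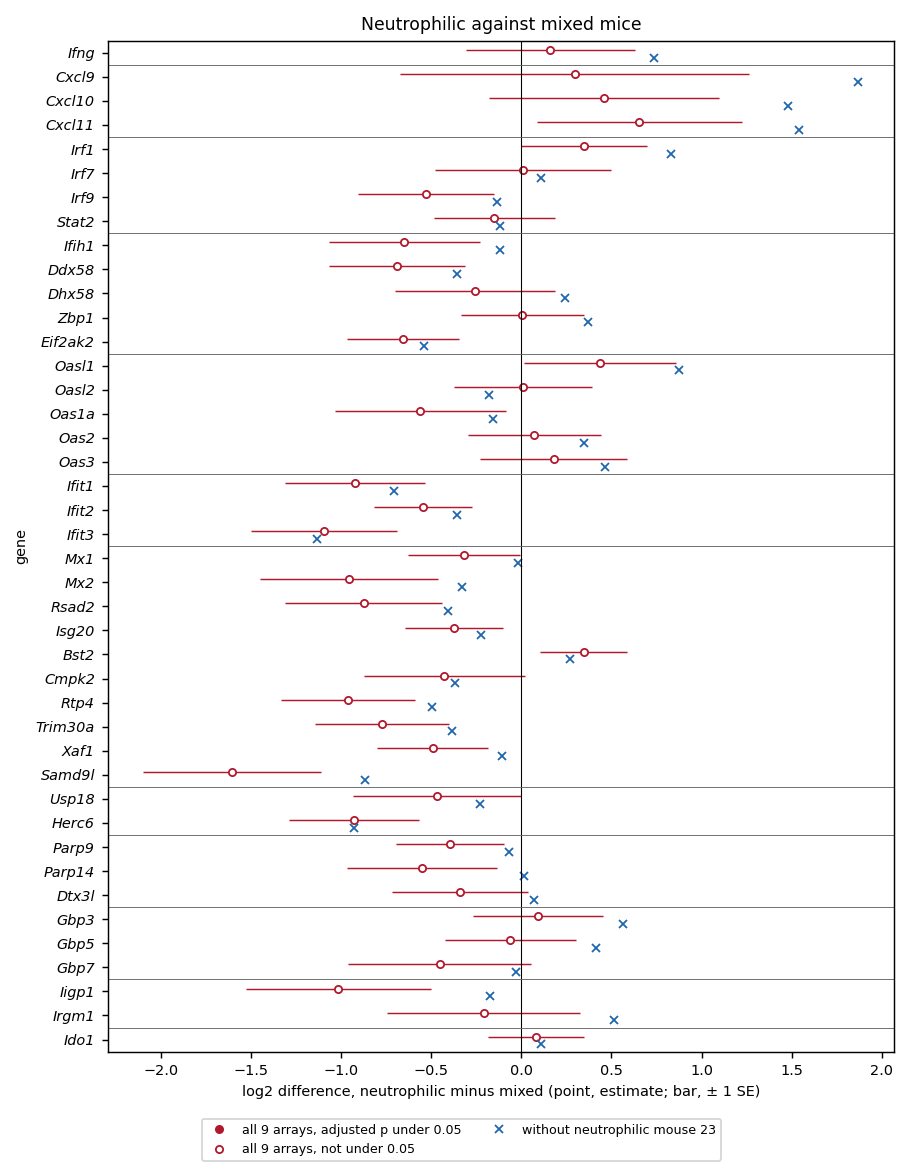
Circles are log2 differences, neutrophilic minus mixed, with 1 SE either side, for each gene on 9 arrays, and crosses are the same difference without neutrophilic mouse 23. All circles are open (0 genes passed), the 3 chemokines move to the right without mouse 23, and Samd9l lies farthest to the left at -1.61.

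Mice of 1 group also differed among themselves. Neutrophilic mouse 23 had the lowest value of its group for 34 of the 42 genes, while over all genes it was lowest for 42.6%. Mixed mouse 15 was the highest of its group for 38 of 42 genes (35.4% of all genes) and mixed mouse 17 the lowest for 29 (27.1% of all genes). Mouse 15 lay above mouse 17 for 39 genes, with a median difference of 1.05 (all genes -0.02). The exceptions were Cxcl9 (-1.35), Cxcl11 (-0.79) and Ido1 (-0.83), which were higher in mouse 17. Control mouse 3 was the lowest control for 32 genes (43.3% of all genes).

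In eosinophilic mice none of the 42 genes passed the test against control on all 12 arrays (limma), where 0.0752% of all genes rose and 0.421% fell. At an unadjusted p under 0.05 there were 7 (16.7%, all genes 28.2%). Mouse 7 was the lowest of its group for 38 of 42 genes (40.0% of all genes). The median difference was 0.33 (all genes 0.00583). It was 0.77 without mouse 7 and -0.07 without eosinophilic mouse 8, the array that had the highest value of its group for 28 genes (38.8% of all genes). Arrays did not overlap for 6 genes that were higher than control (Ifng, Cxcl10, Cxcl11, Oasl1, Mx1 and Mx2, 14.3%, all genes 11.1%) and for 2 that were lower (Samd9l and Gbp7, 4.76%, all genes 15.9%).

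Without mouse 7, 3 genes rose and 0 fell in eosinophilic mice (all genes 0.451% and 0.883%). These were Cxcl10 (log2 3.33, adjusted p = 0.0499), Ifit1 (log2 2.89, adjusted p = 0.00887) and Rsad2 (log2 3.05, adjusted p = 0.0126, limma, n = 2 and 3). With all 3 arrays the same differences were 2.56, 1.51 and 2.01 (adjusted p of 0.115, 0.243 and 0.134). Irf1, which rose in both intranasal models, differed by -0.91 on all arrays and by 0.19 without mouse 7. Gbp7 measured 5.48, 7.84 and 5.70 in eosinophilic mice and 8.63, 8.99 and 7.87 in control mice. Its difference was -2.16 (adjusted p = 0.11), and -1.73 without mouse 7 (adjusted p = 0.229).

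Mouse 8, the eosinophilic array without a low SD, lay above all 3 controls for 38 of the 42 genes (28.3% of all genes), mouse 9 for 27 (39.9% of all genes) and mouse 7 for 8 (44.8% of all genes). When mice 7 and 9 and neutrophilic mouse 23 were left out, mouse 8 was the single eosinophilic array and its spread was assumed to be that of the other groups. In that fit the median difference of the 42 genes from control was 0.87 (all genes -0.01), with Cxcl10 at 4.19, Iigp1 at 2.05 and Gbp5 at 1.74. Leaving out mouse 8 instead kept both eosinophilic arrays of low SD, and 3558 of all 19937 genes rose and 4706 fell. Of the 42 genes 5 passed then, of which Mx1 was higher and Xaf1, Samd9l, Herc6 and Gbp7 were lower.

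**Figure D5:**
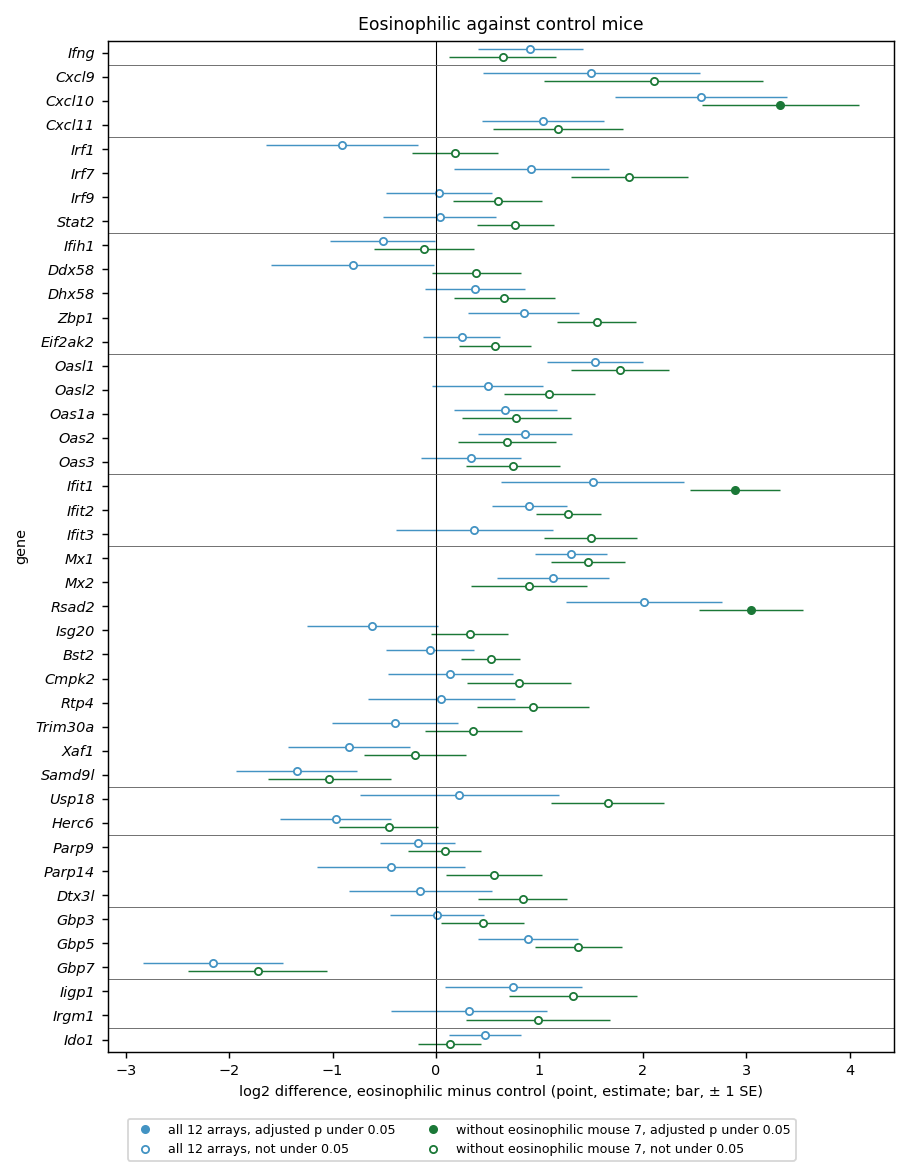
Points are log2 differences, eosinophilic minus control, with 1 SE either side, on all 12 arrays (blue) and without eosinophilic mouse 7 (green); filled points passed the adjusted p threshold of 0.05. Only Cxcl10, Ifit1 and Rsad2 are filled, all without mouse 7, and for most genes the green point lies to the right of the blue one.

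Mixed and eosinophilic mice shared the dose of each allergen and differed in route, adjuvant and schedule. None of the 42 genes passed the test (all genes 0.00502% higher, 0% lower, limma), and 21 had an unadjusted p under 0.05 (50%, all genes 16.7%). Mixed arrays lay wholly above eosinophilic arrays for 14 genes (33.3%, all genes 6.91%), among them all 3 CXCR3 chemokines, Irf1, Gbp3, Gbp5, Iigp1 and Irgm1, and wholly below them for 0 (all genes 6.14%). Gbp5 differed by 2.13 (SE 0.48, adjusted p = 0.251), or by 1.64 without mouse 7 (adjusted p = 0.356). The median difference was 1.41 on all arrays and 0.67 without mouse 7, where again 0 genes passed (all genes 0.0301% higher, 0.0201% lower). Without the 3 arrays of low SD, where mouse 8 was the single eosinophilic array, the median difference was 0.38 (all genes 0.003). Without eosinophilic mouse 8, 18 genes were higher in mixed mice, beside 3412 higher and 2567 lower among all genes.

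Between neutrophilic and eosinophilic mice 0 of 42 genes passed the test (all genes 0.11% higher, 0.00502% lower, limma), 12 had an unadjusted p under 0.05 (28.6%, all genes 10.2%), and the median difference was 0.75 (all genes -0.02). Without mouse 7 the median was 0.19 and 0 genes passed (all genes 0.14% higher, 0.0502% lower). Neutrophilic arrays lay wholly above eosinophilic ones for Irf1, Oasl1, Bst2, Gbp3 and Gbp5 (11.9%, all genes 4.21%) and below them for 0 genes (all genes 3.99%). Without the 3 arrays of low SD, mouse 8 was the single eosinophilic array, so only differences are given here for that fit. The median difference of the 42 genes was then 0.30 (all genes -0.00429). Cxcl9 differed by 3.32, Cxcl10 by 2.46, Cxcl11 by 2.34, Irf1 by 1.65, Gbp3 by 1.57 and Gbp5 by 1.70. Other genes of these kinds differed less, Irf7 by 0.30, Stat2 by 0.06, Irf9 by -0.31 and Gbp7 by 0.88. Irgm1 differed by 1.13 and Iigp1 by 0.74. Antiviral genes lay on both sides, with Oasl1 at 1.65 and Mx2 at 1.05, and Ifit1 at -0.33, Rsad2 at -0.11 and Ifit3 at -0.86. The count of genes higher in neutrophilic mice was 3 without mouse 23 (44 of all genes higher) and 11 without eosinophilic mouse 8 (1688 of all genes higher).

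Further genes of the pathway came from lists drawn from general knowledge. Of 14 interferon ligand genes, 0 rose or fell in either intranasal model. Their mean was 4.07 to 5.12 on neutrophilic, 4.06 to 4.50 on mixed and 4.01 to 4.39 on control arrays. On mixed and control arrays this lay below the median of the array, the lowest of which was 4.94. At such low values a rise could be missed. Ifnb1 measured 4.55, 3.86 and 3.90 in neutrophilic mice and 3.69, 3.67 and 3.63 in control mice (log2 0.43, adjusted p = 0.264), and Ifna13 differed by 0.76 (adjusted p = 0.189). Of 13 receptor and signalling genes, 3 rose in each model, and all 3 encode inhibitors. Socs3 measured 9.33, 10.03 and 10.73 in neutrophilic, 9.77, 9.05 and 9.23 in mixed, 5.82, 8.45 and 7.93 in eosinophilic and 6.48, 6.54 and 6.25 in control mice, clear of the controls in both intranasal groups. It rose by 3.61 in neutrophilic (adjusted p = 4.28e-05) and by 2.93 in mixed mice (adjusted p = 0.00028). Socs1, a brake on interferon gamma signalling, rose by 2.46 in neutrophilic (adjusted p = 0.000351) and by 1.64 in mixed mice (adjusted p = 0.00753). The phosphatase gene Ptpn2 rose by 1.28 in neutrophilic (adjusted p = 0.0189) and by 2.14 in mixed mice (adjusted p = 0.00253).

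Of 14 genes of nucleic acid sensing upstream of interferon, 4 rose and 1 fell in neutrophilic mice and 2 rose in mixed mice. Sting1, the adaptor for cytosolic DNA, rose by 2.13 in neutrophilic (adjusted p = 0.00247) and by 2.25 in mixed mice (adjusted p = 0.00394), and the adaptor gene Myd88 by 1.68 in neutrophilic and 1.99 in mixed mice. Mavs, the adaptor of RIG-I and MDA5, fell by 1.29 in neutrophilic mice (adjusted p = 0.0249) and differed by -1.26 in mixed mice (adjusted p = 0.0582). Of 36 further interferon-induced genes, 6 rose in neutrophilic and 4 in mixed mice, with 0 lower. They include Slfn4, of myeloid cells (log2 2.90 and 2.66), and Ifitm1, which hinders virus entry (1.20 and 1.51). Of 22 genes of type 1 lymphocytes and NK cells, 1 rose and 1 fell in neutrophilic mice. Ccl5, a T cell chemoattractant, rose by 1.39 and Il18r1, a chain of the IL-18 receptor, fell by 1.22. In mixed mice Ccl5 rose by 1.61 and Il18r1 differed by -0.33. With all 12 arrays in the fit, 2 of these genes (Socs3 and Socs1) rose in neutrophilic mice and Socs3 alone in mixed mice.

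Marker genes of several cell types differed between the same groups. In bulk lung more or fewer cells of a type and more or less RNA per cell cannot be told apart. Neutrophil markers rose for 8 of 8 genes in neutrophilic mice and 7 of 8 in mixed mice. The mean of the 8 was 7.63 to 9.22 on neutrophilic, 8.03 to 8.99 on mixed, 5.88 to 7.79 on eosinophilic and 5.55 to 6.49 on control arrays. Monocyte and macrophage markers rose for 2 of 5 genes in neutrophilic and 1 of 5 in mixed mice (means of 7.36 to 8.38, 7.70 to 8.29, 5.99 to 8.30 and 6.47 to 7.05 in the same order of groups). Endothelial markers fell for 4 of 6 genes in neutrophilic and 3 of 6 in mixed mice. Of the epithelial markers 1 of 8 fell in neutrophilic mice and 0 in mixed mice, and of those of fibroblasts and smooth muscle 1 of 5 and 0. With all 12 arrays in the fit, neutrophil markers rose for 5 genes in neutrophilic and 1 in mixed mice and endothelial markers fell for 0. Markers of T cells, B cells, eosinophils and plasmacytoid dendritic cells passed for 0 genes in either model. The 5 markers of plasmacytoid dendritic cells averaged 5.31 to 5.65 on neutrophilic, 5.14 to 5.33 on mixed and 4.94 to 5.11 on control arrays. The 6 T cell markers averaged 5.46 to 6.79, 5.91 to 6.68 and 5.62 to 6.31 on those arrays. The part of these cells in the differences of the interferon-stimulated genes was not tested.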

How the data were processed

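Whole-lung RNA of 12 mice (300 ng per labelling, per the labels' protocols) was hybridised to 1-colour arrays. The deposited log2 intensities came from RMA, for which the submitters' processing notes name the authors' software as Affymetrix Expression Console; its version is not given in the sources used here. Base 2 was inferred from the range of the values. Among 34760 probe sets, 21640 named 1 gene, 1321 named several, and 11799 had no listed gene. A RefSeq table held the Entrez IDs of 21553, and 0 symbols changed. No further normalization, filter, detection call or batch term was used.

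Differences were tested with limma 3.58.1 in R 4.3.3 (lmFit and eBayes, two-sided, Benjamini-Hochberg over 19937 genes), after the fit was tested on simulated data. Neutrophilic, mixed and control mice were fitted on 9 arrays, and eosinophilic comparisons on 12. Any listed gene could be named, with array values for the smallest p of a role, and from each pathway list Ifnb1 and the 2 genes of smallest p. Ptpn2 and Mavs were named after their values were seen. The genes, lists and tests were chosen with earlier results of these data known. Alternatives were array centring, quantile normalization, a filter, trend and robust eBayes, averaged probe sets, other sets of arrays and leaving out each array.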

Additional observations from a re-analysis of the deposited data

How the results depend on the processing

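No paired analysis was possible because the groups share no mouse numbers. For neutrophilic against control mice, 18 genes became 12 with arrays centred on their medians and 21 after quantile normalization. The count was 5 with all 12 arrays and 10 to 26 when 1 mouse was left out. For mixed against control mice, 18 became 10 with arrays centred on their medians, 23 after quantile normalization and 26 with only the groups compared. The count was 27 without the arrays of low SD and 4 with all 12 arrays. It was 10 to 18 with 1 mouse of the groups compared left out. For neutrophilic against mixed mice, 0 became 1 without the arrays of low SD, and 0 to 1 with 1 mouse left out. For eosinophilic against control mice, 0 became 2 after quantile normalization, 1 with trend and robust eBayes, 3 without mouse 7 and 0 to 5 with 1 mouse left out. Without the arrays of low SD, mouse 8 was the single eosinophilic array. Counts of that setting are therefore not given for eosinophilic against control or mixed against eosinophilic mice. The count given below for neutrophilic against eosinophilic mice rests on that single array. It is not set against all genes, and no conclusion is drawn from it. For mixed against eosinophilic mice the range with 1 mouse left out was 0 to 18. For neutrophilic against eosinophilic mice, 0 became 6 without the arrays of low SD and 0 to 11 with 1 mouse left out. The median difference of the 42 genes in eosinophilic mice was 0.33, and lay between -0.0744 (without eosinophilic mouse 8, a change of sign) and 0.772 (without mouse 7) with 1 mouse left out. The cause of these changes was not tested, beyond the fewer arrays in some fits.

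With arrays centred, the median of all genes in eosinophilic against control mice was -0.24 (0.00583 as deposited), that of the 42 genes was 0.0852 (0.33 as deposited), and 0 of the 42 passed, beside 0 of all genes higher and 2 lower. Counts over all genes moved too. In neutrophilic against control mice 603 rose and 2079 fell, and with arrays centred 367 and 1744. With all 12 arrays the counts were 132 and 289, and after quantile normalization 941 and 1919. In mixed against control mice 351 rose and 487 fell, with arrays centred 208 and 290, and with all 12 arrays 65 and 29. After quantile normalization 486 rose and 590 fell, and with only the groups compared 683 and 1006. In eosinophilic against control mice 15 rose and 84 fell, after quantile normalization 31 and 20, and with trend and robust eBayes 48 and 237. Over all settings run, 132 to 1149 genes rose and 289 to 2359 fell in neutrophilic mice, 65 to 716 rose and 29 to 1143 fell in mixed mice, and 0 to 3558 rose and 0 to 4706 fell in eosinophilic mice, the highest without mouse 8. The genes of the 42 that passed against control under every setting run were Cxcl10, Oasl1, Mx1 and Gbp5 in both intranasal models. The share of all genes that did so was not counted. Arrays of low SD and 3 mice in each group limit what can be seen, and no array gives a detection limit here.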
